A study of Rattus norvegicus with 6 samples.

Results

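Axon guidance ligands and receptors are the netrins, Slits, semaphorins and ephrins and the Unc5, Robo, plexin, neuropilin and Eph proteins that bind them. Their genes were taken from the deposited expression table by gene symbol alone, which gave 67 genes of the 32623 in the table: 35 ligand and 32 receptor genes. They were compared in rat C6 glioma cells, an established line with astroglial features, grown with serum and kept for 24 h in forskolin (FSK) or in its solvent DMSO. Forskolin activates adenylyl cyclase and raises cAMP. Each group had 3 libraries, and both groups share the same line and medium. The labels number the libraries but do not say that they came from separate cultures, so p-values cover no more than the variation among these libraries, and part of that may be technical.

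Guidance cues steer cells and growing axons by attraction or repulsion. Netrins attract through Dcc and repel through Unc5 receptors, Slits repel through Robo receptors, and ephrins and Eph receptors signal in both directions between touching cells. Semaphorins act through plexins, and most secreted class 3 semaphorins need a neuropilin as co-receptor. In glia and glioma the same proteins are known for roles in migration, invasion and contact between cells.

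Library totals ran from 72146807 to 79992081 counts. CPM below is the count scaled to library size after correction by the trimmed mean of M-values (TMM), and FPKM is the authors' own length-scaled value, used wherever levels of different genes are compared. The astroglial marker genes Gfap, S100b, Vim and Nes were all present, and their summed level was 2615 to 2723 CPM in DMSO and 3576 to 3588 CPM in FSK, with Gfap, S100b and Vim higher and Nes lower in FSK. Of the neuron markers Rbfox3 had 0 counts in all 6 libraries, as had Cdh5 and Cldn5 of the endothelial markers. The summed levels of the 5 neuron markers were 9.01 to 11.8 CPM in DMSO and 9.56 to 11.8 CPM in FSK, and those of the 3 endothelial markers 1.53 to 1.70 and 0.499 to 0.996 CPM. The 4 microglia and macrophage markers summed to 0.502 to 1.37 CPM in DMSO and 5.27 to 5.73 CPM in FSK, in FSK mostly Cd68. The part of these marker shifts in the changes below was not tested. In bulk RNA, fewer cells that express a gene and less of its RNA per cell cannot be told apart.

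Guidance genes differed between forskolin-treated and control cells, with more falls than rises among the members. That margin narrowed when a trend with transcript length was removed. The B-type plexins moved in opposite directions, with Plxnb1 and Plxnb2 lower and Plxnb3 higher in FSK. The ephrin-B genes Efnb1 and Efnb2 were lower and the ephrin-A genes Efna1 and Efna4 higher, and the tested Robo genes and the netrin genes Ntn1 and Ntn4 were lower. The fall of Ntn1 did not pass in most fits that left out 1 library. The abundant receptor gene Unc5b did not pass the test.

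Of the 67 members, 48 passed the filter on low counts and were tested. Of these, 10 rose, 18 fell and 20 did not pass at an adjusted p of 0.05 (edgeR quasi-likelihood test, Benjamini-Hochberg adjustment over all 14166 tested genes). That is 58.3% of the tested members, where 39.4% of all tested genes passed, 19.6% as rises and 19.8% as falls. Changes of at least 2-fold that passed were 3 rises and 7 falls among the members, beside 3.44% and 4.26% of all tested genes. The median log2 fold change was -0.29 over tested members and -0.01 over all tested genes, and the median size of the change, without its sign, was 0.63 and 0.31. Groups did not overlap for 33 tested members, all 28 that passed and 5 that did not (Slit1, Ntn3, Unc5c, Sema3e and Sema6d), beside 53% of all tested genes. Sema3g, among the 28 and the 3 rises of at least 2-fold, and Sema6d, among the 5, passed the filter through 1 group alone. They had to differ, so their place in these counts rests on that.

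Long transcripts leaned towards lower values in FSK across the whole table, and most members are long. The median log2 fold change of all tested genes went from 0.10 among the shortest transcripts to -0.16 among the longest when they were put into 5 equal bins by implied length, and 29 of the 48 tested members were in the longest bin. With this trend removed from each library, 12 members rose and 14 fell. In that fit 38.6% of all tested genes passed, and 54.6% of those that passed rose. With the trend left in, these shares were 39.4% and 49.7%.

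**Figure D1:**
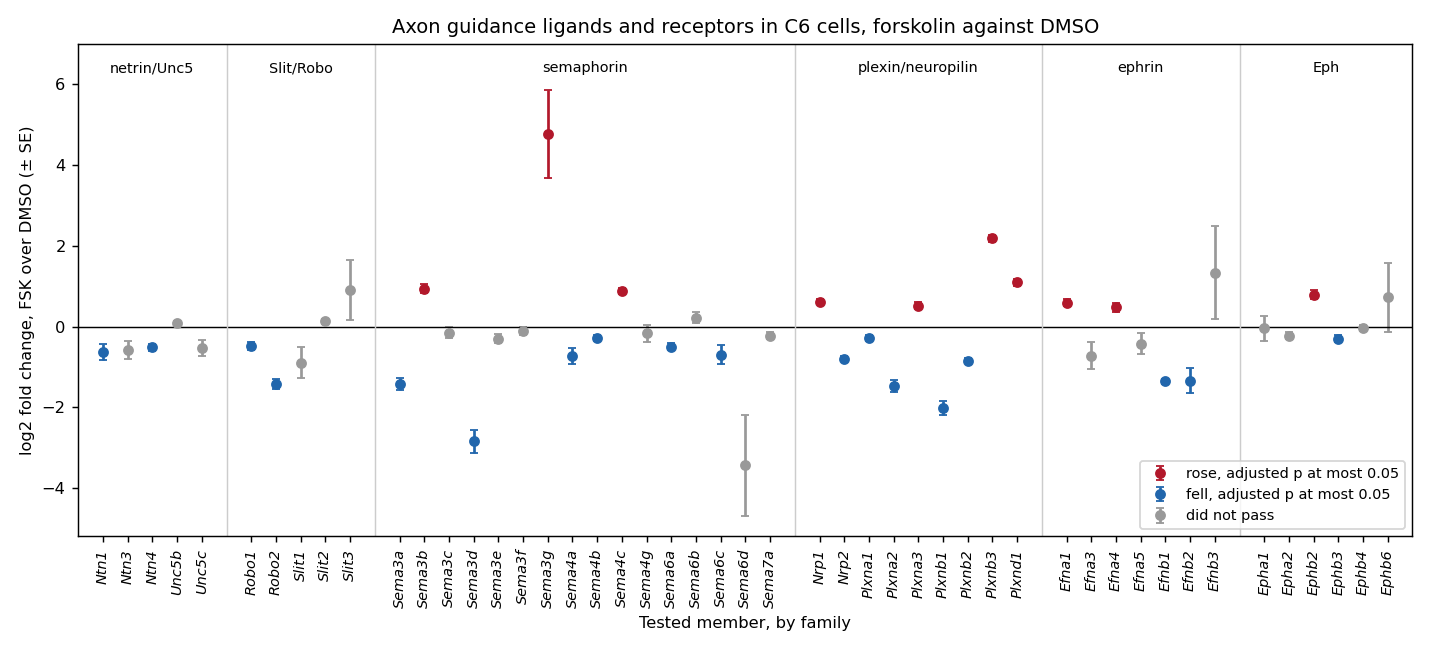
Log2 fold change (FSK over DMSO, edgeR) of the 48 tested members on the vertical axis, grouped by family on the horizontal axis; points are fitted values and bars are ± SE. All 9 tested plexin and neuropilin genes are coloured, 4 as rises and 5 as falls, while most Eph receptor genes sit near 0.

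**Figure D2:**
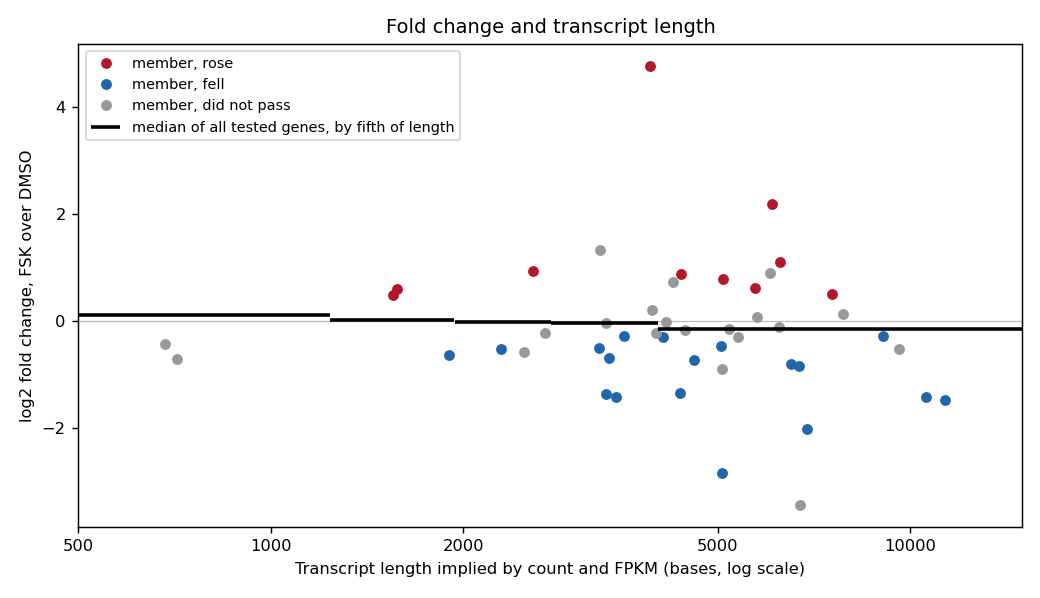
Log2 fold change of tested members (points) against the transcript length implied by their counts and FPKM, on a log axis; black lines are medians of all tested genes in 5 bins of equal size by length, from 0.10 in the shortest to -0.16 in the longest. Members that fell by 1 or more on the log2 scale lie at lengths of 3344 bases and above.

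Levels per length spanned a wide range. In DMSO the highest FPKM among members was that of Plxnb2, at 122 ± 4.04 (SD, n = 3), followed by Nrp2 at 95.5 ± 6.27 and Unc5b at 83.2 ± 1.12. Sema7a (49.3 ± 4.22 FPKM), Efnb1 (42.6 ± 2.96 FPKM) and Sema3c (38.3 ± 8.63 FPKM) came next, and their libraries overlapped. In FSK the order began with Unc5b (83.6 ± 6.06 FPKM), Plxnb2 (64.7 ± 4.79 FPKM) and Nrp2 (52.2 ± 3.11 FPKM), and Efnb1 had moved from rank 5 to rank 8. At 15.8 FPKM, its FSK libraries overlapped those of Plxna1 (15.5), Plxnb3 (15.4) and Plxnd1 (15.1), so rank 8 cannot be told from the next ranks. A mean of at least 10 FPKM was reached by 15 members in DMSO and 16 in FSK.

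The remaining 19 members were not tested. No count at all was recorded for 10 of them: Epha5, Epha7, Epha8, Ephb1, Robo4, Ntn5, Unc5d, Plxna4, Sema4f and Sema5b. The other 9, Epha3, Epha4, Epha10, Robo3, Efna2, Unc5a, Plxnc1, Sema4d and Sema5a, had at most 22 counts in any library. Sema4d encodes a known ligand of plexin-B1, Sema5a a known ligand of plexin-B3, and Plxnc1 a receptor of semaphorin-7A, so these partners were near the limit of detection here.

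Promoters of 52 members were in the RefSeq table of the rat build GRCr8, which gives 300 bases around each gene start, most of them before it. They were searched for the cAMP response element TGACGTCA and its core TGACG, the letters bound by CREB, on both strands (CGTCA on the other strand). The full element, which contains the core, was in the promoter of 1 member, Epha2, and in 1.83% of all 33469 promoters. The core was in 9 members, 17.3% of those with a promoter, and in 21.2% of all promoters. It was in none of the 9 risen members with a promoter and in 2 of the 15 that fell, Efnb1 and Sema3d. The GC box, with the letters GGGCGG on either strand, was in 29 members, 55.8%, and in 33.1% of all promoters, among them 5 of the 9 risen and 8 of the 15 fallen members. These counts describe letters in 1 window per gene and were not tested. The promoters of the B-type plexin genes that moved most in opposite directions and of the 2 fallen genes with the core are shown 5′ to 3′, with the core in capitals. Their positions are chrX:156646624-156646923 (plus strand) for Plxnb3, chr8:118622911-118623210 (plus strand) for Plxnb1, chrX:68297279-68297578 (plus strand) for Efnb1 and chr4:23460922-23461221 (minus strand) for Sema3d.
Plxnb3: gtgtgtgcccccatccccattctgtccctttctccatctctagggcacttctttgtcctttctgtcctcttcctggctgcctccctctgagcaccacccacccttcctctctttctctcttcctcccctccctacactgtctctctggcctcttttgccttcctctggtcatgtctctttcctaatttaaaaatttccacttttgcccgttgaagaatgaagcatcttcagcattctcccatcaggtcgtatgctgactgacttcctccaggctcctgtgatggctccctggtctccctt
Plxnb1: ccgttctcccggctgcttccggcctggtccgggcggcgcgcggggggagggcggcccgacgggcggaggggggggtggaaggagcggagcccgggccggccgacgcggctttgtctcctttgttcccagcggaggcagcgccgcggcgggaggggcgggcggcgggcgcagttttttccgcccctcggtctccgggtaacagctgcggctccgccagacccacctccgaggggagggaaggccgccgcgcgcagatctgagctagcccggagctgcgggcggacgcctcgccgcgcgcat
Efnb1: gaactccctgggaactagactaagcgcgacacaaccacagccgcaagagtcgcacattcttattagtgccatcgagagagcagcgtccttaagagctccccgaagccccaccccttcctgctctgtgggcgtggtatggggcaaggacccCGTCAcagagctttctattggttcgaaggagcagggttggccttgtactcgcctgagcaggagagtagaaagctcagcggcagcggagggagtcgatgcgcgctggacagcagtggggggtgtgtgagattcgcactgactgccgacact
Sema3d: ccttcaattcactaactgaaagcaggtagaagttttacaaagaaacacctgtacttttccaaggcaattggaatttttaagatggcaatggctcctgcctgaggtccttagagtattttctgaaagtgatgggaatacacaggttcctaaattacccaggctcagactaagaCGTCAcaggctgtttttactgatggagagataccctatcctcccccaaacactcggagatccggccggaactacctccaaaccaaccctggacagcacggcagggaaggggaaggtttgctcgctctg
The Plxnb1 window was 77.3% G and C, the Plxnb3 window 52%, and neither held the core. In Efnb1 the core began 100 bases before the gene start and in Sema3d 78 bases before it, in both on the other strand.

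Plexins and neuropilins, the semaphorin receptors, had 9 tested genes and all of them passed, 4 as rises and 5 as falls. Of all tested genes 39.4% passed. Gene positions here and below are those of the deposited table, in the build Rnor_6.0. There Plxnb3 is on the minus strand, while its promoter window above, in the build GRCr8, is on the plus strand. Among the B-type plexins, Plxnb3 (ENSRNOG00000061731; chrX:157015305-157028434, minus strand) had 22.7, 19.1 and 21.7 CPM in the DMSO libraries and 88.8, 98.9 and 101 CPM in the FSK libraries. Every FSK library lay far above every DMSO library. The log2 fold change of Plxnb3 was 2.19 ± 0.09 (SE), a 4.55-fold rise (adjusted p = 1.54e-06). Plxnb1 (ENSRNOG00000029510; chr8:117836701-117856689, plus strand) had 54.3, 57.9 and 54.6 CPM in DMSO and 10.1, 13.9 and 17.2 CPM in FSK. All 3 FSK libraries were low and the groups were well apart. It fell by 2.02 ± 0.17 on the log2 scale (adjusted p = 7.74e-05). Plxnb2 (ENSRNOG00000007133; chr7:130135464-130151880, minus strand), a receptor of semaphorin-4C, had 782, 827 and 784 CPM in DMSO and 402, 459.5 and 472 CPM in FSK. Its groups did not overlap, and it fell by 0.84 ± 0.07 on the log2 scale (adjusted p = 4.89e-05).

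On the FPKM scale the B-type plexin genes therefore changed places. Plxnb1 exceeded Plxnb3 in DMSO, at 8.26 ± 0.315 FPKM against 3.56 ± 0.309 (SD, n = 3). In FSK Plxnb3 reached 15.4 ± 0.897 FPKM and Plxnb1 1.94 ± 0.481. Plxnb2 was the highest of the 3 in both groups.

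Plxnd1 (chr4:147854309-147893992, minus strand) encodes the receptor of semaphorin-3E, known from vessel patterning. It had 41.9, 50.7 and 43.3 CPM in DMSO and 88.4, 102 and 99.9 CPM in FSK. The groups were apart in every library, with a log2 fold change of 1.10 ± 0.09 (SE, adjusted p = 6.21e-05). Its ligand gene Sema3e had 12.8 ± 0.885 CPM in DMSO and 10.4 ± 1.04 in FSK and did not pass (log2 fold change -0.30 ± 0.11, adjusted p = 0.0687).

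Among A-type plexins, the signalling partners of neuropilins, Plxna2 (chr13:113373578-113571648, plus strand) had 27.9, 34.5 and 38.0 CPM in DMSO and 10.3, 14.3 and 11.6 CPM in FSK. DMSO replicate 1 was the lowest of its group and still well above FSK. Plxna2 fell by 1.47 ± 0.16 on the log2 scale (adjusted p = 0.000238). Plxna1 fell by 0.29 ± 0.08 (adjusted p = 0.024), from 176 ± 8.35 to 144 ± 15.0 CPM (SD, n = 3), and with the length trend removed its log2 fold change was -0.03 (adjusted p = 0.845). Plxna3 went from 58.1 ± 2.66 to 82.7 ± 9.11 CPM and rose by 0.51 ± 0.09 (adjusted p = 0.00235).

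The neuropilins also moved apart. Nrp2 (chr9:69497121-69612087, plus strand), the co-receptor of semaphorin-3F, had 572, 625 and 629 CPM in DMSO and 326, 370.5 and 352 CPM in FSK. Its FSK libraries were all lower, and it fell by 0.80 ± 0.06 on the log2 scale (adjusted p = 4.89e-05). Nrp1 (chr19:61332351-61485858, plus strand), the co-receptor of semaphorin-3A, had 46.9, 47.9 and 51.6 CPM in DMSO and 77.4, 76.8 and 69.8 CPM in FSK. Here the FSK libraries were all higher, and the log2 fold change was 0.61 ± 0.07 (adjusted p = 0.000267). Nrp2 stayed above Nrp1 per length in FSK, at 52.2 against 12.7 FPKM.

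Summed over plexins and neuropilins, FPKM was 262 to 284 in the DMSO libraries and 176 to 198 in the FSK libraries. The Plxnb2 share of this sum was 44.1 ± 0.844% in DMSO and 34.1 ± 0.71% in FSK (SD, n = 3), and the Nrp2 share 34.6 ± 0.956% and 27.6 ± 0.734%. Plxnb3 went from a share of 1.29 ± 0.156% to 8.15 ± 0.121%, and Plxnd1 from 2.68 ± 0.196% to 7.98 ± 0.0765%. Shares of a sum move together, so they describe the mix and were not tested.

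**Figure D3:**
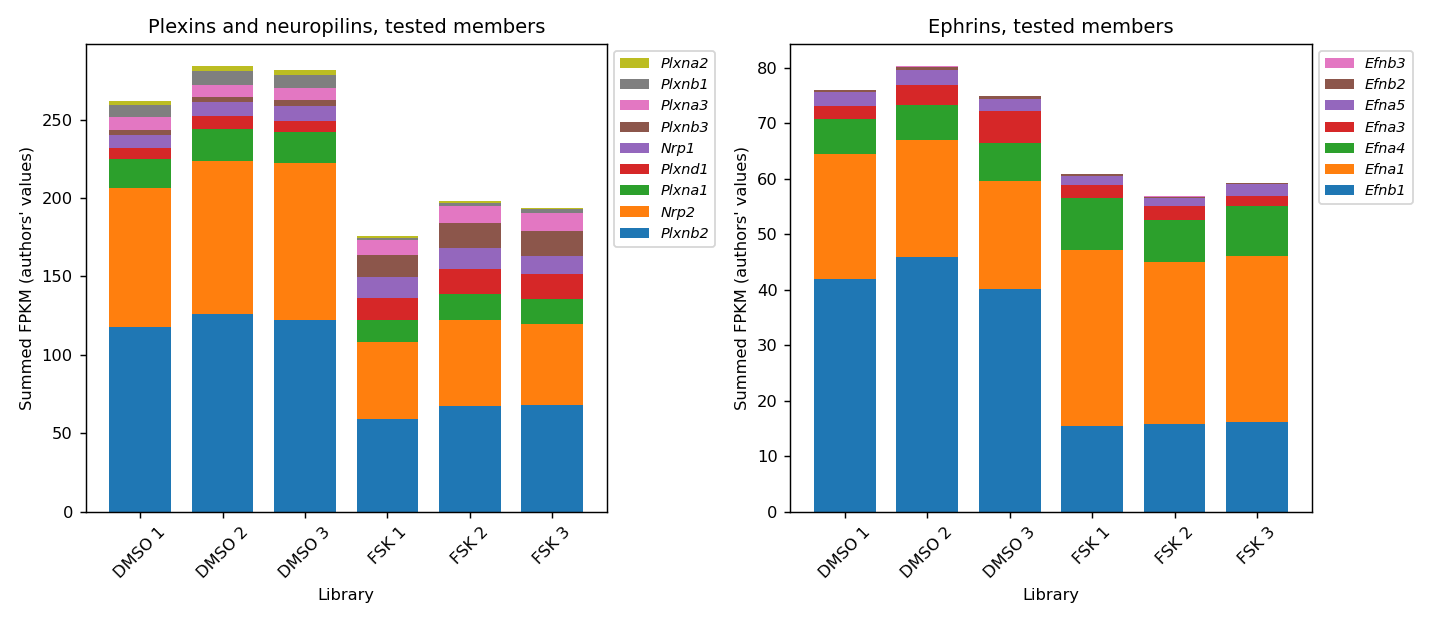
Stacked FPKM of the tested plexin and neuropilin genes (left) and ephrin genes (right) in each of the 6 libraries; each colour is a gene and bar height is the summed FPKM. The FSK bars are lower on both sides, with Plxnb3 and Plxnd1 wider on the left and Efnb1 narrower on the right.

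Semaphorins, the ligands of these receptors, had 16 tested genes of 20, of which 3 rose, 6 fell and 7 did not pass. So 56.2% of those tested passed, beside 39.4% of all tested genes. The class 3 genes, which encode secreted proteins, held the largest changes that passed. The largest was that of Sema3g, which passed the filter through FSK alone and had to differ. Its place in this share, among the 3 rises and in this order rests on that. Next in size were the changes of Sema3d and Sema3a. Sema3d (ENSRNOG00000007202; chr4:19224310-19413484, minus strand) had 9.10, 14.03 and 19.6 CPM in DMSO and 1.76, 2.28 and 1.91 CPM in FSK. The DMSO libraries spread widely, but the lowest of them was still several times the highest FSK library. Sema3d fell by 2.85 ± 0.28 on the log2 scale (adjusted p = 0.00015). Sema3a (ENSRNOG00000023337; chr4:18178656-18396035, minus strand), the repellent that collapses growth cones, had 22.2, 29.5 and 33.1 CPM in DMSO and 11.3, 10.9 and 9.33 CPM in FSK. Again DMSO replicate 1 was the lowest of its group and the groups did not overlap. Sema3a fell by 1.43 ± 0.16 (adjusted p = 0.000285).

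Sema3g (ENSRNOG00000018952; chr16:7303578-7315390, plus strand), encoding a ligand of neuropilin-2, was counted 0, 17 and 0 times in the DMSO libraries and 144, 148 and 148 times under FSK. It passed the filter through its FSK libraries alone, so it had to differ. The fitted log2 fold change was 4.77 ± 1.08 (adjusted p = 0.00927). With DMSO replicate 2, the 1 control library with counts, left out, the fitted value was 10.22 and is no bound. It stayed low in FSK, at 0.492 ± 0.0255 FPKM (SD, n = 3).

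Sema3b, which also encodes a secreted semaphorin, went from 5.54 ± 0.0951 to 10.6 ± 0.681 CPM and rose by 0.93 ± 0.11 (adjusted p = 0.000439). The most abundant class 3 gene, Sema3c, had 158, 188 and 238 CPM in DMSO and 194, 178 and 154 CPM in FSK. These groups overlapped, and it did not pass (log2 fold change -0.15 ± 0.15, adjusted p = 0.457). Sema3f, encoding the main ligand of neuropilin-2, had 61.2 ± 1.48 and 56.6 ± 8.29 CPM and did not pass either (adjusted p = 0.422).

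Of the membrane-bound class 4 semaphorins, Sema4c, the plexin-B2 ligand gene, rose by 0.88 ± 0.06 (adjusted p = 3.43e-05), from 57.2 ± 3.72 to 105 ± 3.93 CPM (SD, n = 3), against the fall of its receptor gene. Sema4a (-0.73 ± 0.19, adjusted p = 0.0172) and Sema4b (-0.29 ± 0.07, adjusted p = 0.0163) fell. The adjusted p of Sema4a was 0.0525 with DMSO replicate 1 left out, 0.0536 with DMSO replicate 2 left out and 0.0529 with FSK replicate 2 left out. That of Sema4b was 0.077 without DMSO replicate 2, 0.0551 without FSK replicate 3 and 0.054 with the length trend removed.

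Class 6 members span the membrane and can act as ligands or receptors. Sema6a, a ligand of A-type plexins, fell by 0.50 ± 0.09 (adjusted p = 0.00389), from 60.1 ± 7.55 to 42.5 ± 1.39 CPM. Sema6c fell by 0.70 ± 0.23 (adjusted p = 0.042), but it passed in just 1 of the 6 fits that leave out a library, that without FSK replicate 3 (adjusted p = 0.0211). In the other 5 the adjusted p was 0.0664 to 0.114. Sema6d was counted 12, 27 and 12 times in the DMSO libraries and 0, 4 and 0 times under FSK, and did not pass (adjusted p = 0.0604, and 0.0313 without FSK replicate 2). It passed the filter through its DMSO libraries alone, so it had to differ, and these p-values rest on that. Sema7a, the single lipid-anchored semaphorin gene and the one with the highest FPKM, had 135, 139 and 115 CPM in DMSO and 105, 109 and 118 CPM in FSK. The groups overlapped and it did not pass (-0.23 ± 0.08, adjusted p = 0.0574), though it did in DESeq2 (adjusted p = 0.0242), in limma on FPKM (0.0158 and 0.0156 for pseudocounts of 1 and 0.1), with a filter at 1 FPKM (0.0487) and without DMSO replicate 3 (0.00885).

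Among ephrins, the cell-surface ligands of Eph receptors, 7 of 8 genes were tested, of which 2 rose, 2 fell and 3 did not pass. That is 57.1% passing, beside 39.4% of all tested genes. Both that fell were B-type and both that rose A-type. Efnb1 (ENSRNOG00000006877; chrX:68891227-68904038, plus strand) encodes a transmembrane ephrin that binds EphB receptors. It had 139, 150.5 and 129 CPM in DMSO and 52.4, 54.1 and 56.2 CPM in FSK. The FSK libraries were close together and all low, and Efnb1 fell by 1.36 ± 0.07 on the log2 scale (adjusted p = 5.59e-06). Efnb2 (chr16:86631064-86675049, plus strand) was much lower, with 1.47, 2.52 and 2.12 CPM in DMSO and 1.009, 0.718 and 0.683 CPM in FSK. Its groups did not overlap, and it fell by 1.34 ± 0.31 (adjusted p = 0.0106). Efnb3, lower still at up to 0.472 CPM, did not pass (1.34 ± 1.14, adjusted p = 0.393).

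Efna1 (chr2:188588796-188596222, minus strand) encodes a lipid-anchored ephrin and known ligand of EphA2. It had 35.3, 32.5 and 29.2 CPM in DMSO and 50.5, 46.9 and 48.9 CPM in FSK. All FSK libraries were higher, and it rose by 0.59 ± 0.08 (adjusted p = 0.000975). Efna4, also lipid-anchored, rose by 0.48 ± 0.11 (adjusted p = 0.01), from 9.90 ± 0.365 to 13.8 ± 1.40 CPM (SD, n = 3). Efna3 and Efna5 did not pass (adjusted p = 0.121 and 0.247), and the log2 fold changes were -0.72 and -0.42.

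Summed FPKM of the ephrin-B genes was 40.7 to 46.6 in the DMSO libraries and 15.8 to 16.4 in the FSK libraries, while that of the ephrin-A genes was 33.7 to 34.2 and 40.8 to 45.1. Efnb1 made up 55.3 ± 1.81% of the summed ephrin FPKM in DMSO and 26.8 ± 1.32% in FSK, and Efna1 27.3 ± 2.21% and 51.3 ± 0.772% (SD, n = 3). The leading ephrin was thus Efnb1 in every DMSO library and Efna1 in every FSK library.

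Eph receptors are tyrosine kinases, and 6 of 13 genes were tested, of which 1 rose, 1 fell and 4 did not pass. The share that passed, 33.3%, was below the 39.4% of all tested genes. Ephb2, a receptor of B-type ephrins, rose by 0.79 ± 0.11 (adjusted p = 0.000791), from 15.5 ± 1.81 to 26.7 ± 1.26 CPM (SD, n = 3). Ephb3 had 41.3, 43.2 and 38.5 CPM in DMSO and 35.2, 30.0 and 34.7 CPM in FSK. These groups lay just apart, with a fall of 0.30 ± 0.09 (adjusted p = 0.0252) that did not pass without DMSO replicate 2 (adjusted p = 0.0972), without FSK replicate 2 (adjusted p = 0.0812), with a replicate block (adjusted p = 0.0691) or with the length trend removed (adjusted p = 0.132). Epha2, the receptor of ephrin-A1, had 55.7, 58.9 and 48.4 CPM in DMSO and 43.2, 45.6 and 50.2 CPM in FSK. The groups overlapped and it did not pass (-0.23 ± 0.09, adjusted p = 0.0768), except with limma on FPKM (adjusted p = 0.0357 and 0.0332 for pseudocounts of 1 and 0.1) and without DMSO replicate 3 (adjusted p = 0.0178). Ephb4, an ephrin-B2 receptor gene, had 37.1 ± 2.70 and 36.3 ± 1.32 CPM (adjusted p = 0.799).

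Of 7 genes for Slits and their Robo receptors 5 were tested: both Robo genes fell and the 3 Slit genes did not pass. The share that passed, 40%, was close to the 39.4% of all tested genes. Robo2 (ENSRNOG00000029598; chr11:11062790-11585378, minus strand) had 54.8, 59.1 and 73.0 CPM in DMSO and 23.8, 25.1 and 20.9 CPM in FSK. Every FSK library was low, and Robo2 fell by 1.42 ± 0.12 on the log2 scale (adjusted p = 7.22e-05). Robo1 (chr11:9642365-10143317, plus strand) had 41.3, 44.0 and 50.9 CPM in DMSO and 29.9, 33.9 and 34.4 CPM in FSK. The groups did not overlap, and it fell by 0.47 ± 0.10 (adjusted p = 0.00598). Slit2, which gave 97.1 ± 0.37% of the summed Slit FPKM in DMSO and 98.2 ± 0.235% in FSK, had 67.1, 66.2 and 76.1 CPM in DMSO and 79.0, 72.9 and 76.6 CPM in FSK. These groups overlapped and Slit2 did not pass (0.13 ± 0.07, adjusted p = 0.188), but with the length trend removed its log2 fold change was 0.36 (adjusted p = 0.00509). Slit1 (-0.89 ± 0.37, adjusted p = 0.0926) and Slit3 (0.91 ± 0.74, adjusted p = 0.371) were at or below 1.44 CPM in every library.

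Netrins are secreted proteins related to laminins. Of 8 netrin and Unc5 genes 5 were tested, with 2 falls, no rise and 3 that did not pass. Here too the share that passed, 40%, was close to the 39.4% of all tested genes. Ntn4, the most abundant netrin gene, had 44.6, 48.2 and 48.4 CPM in DMSO and 31.7, 36.0 and 31.1 CPM in FSK. All FSK libraries were lower, and it fell by 0.52 ± 0.08 (adjusted p = 0.00153). Ntn1, the classical netrin gene, fell by 0.64 ± 0.20 (adjusted p = 0.0365), from 7.30 ± 1.25 to 4.69 ± 1.02 CPM (SD, n = 3). It did not pass with DMSO replicate 1 (adjusted p = 0.0727) or 2 (0.132) left out, nor with FSK replicate 1 (0.0983) or 3 (0.101) left out. Unc5b (chr20:30339673-30406295, minus strand), the repulsive netrin receptor gene that made up 99.6 ± 0.0627% of the summed Unc5 FPKM in DMSO, had 471, 477 and 457 CPM in DMSO and 447, 516 and 517 CPM in FSK. These groups overlapped and it did not pass (0.08 ± 0.06, adjusted p = 0.381), but with the length trend removed its log2 fold change was 0.24 (adjusted p = 0.0307). The netrin receptor gene Dcc had 0 counts in all 6 libraries.

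**Figure D4:**
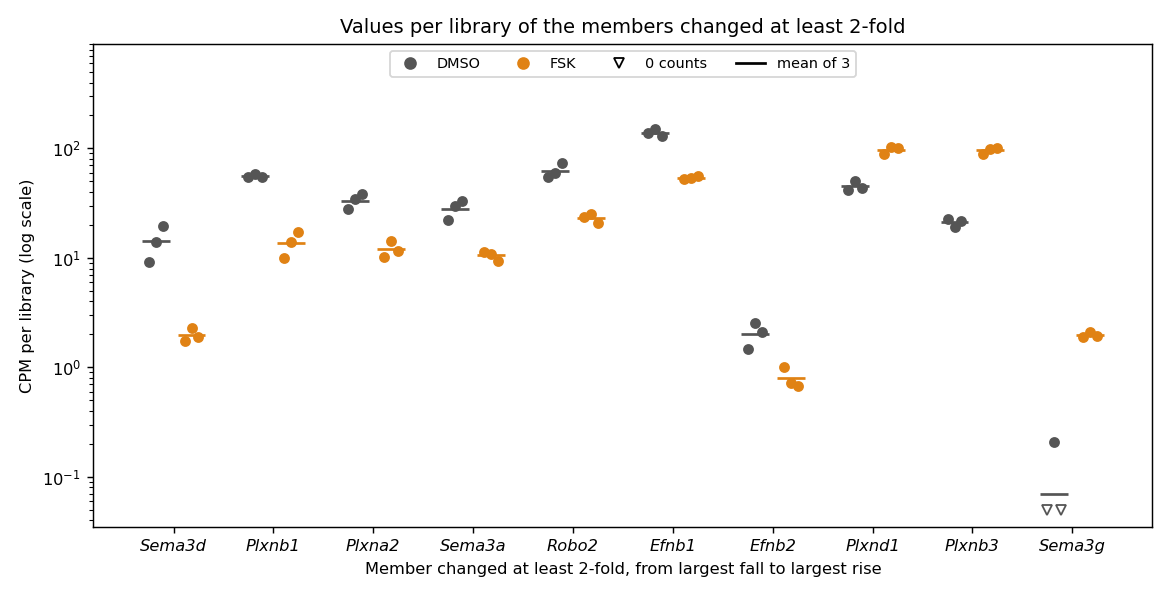
CPM in each library (log axis) of the 10 members that passed and changed at least 2-fold, from the largest fall (Sema3d) to the largest rise (Sema3g); grey points are DMSO, orange points FSK, lines the means of 3, and open triangles mark 0 counts. In each of the 10 genes the FSK points lie wholly on 1 side of the DMSO points. For Sema3g this rests on a filter passed through its FSK libraries alone.

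Some members that changed are neighbours in the rat genome (Rnor_6.0, positions from the table). Robo1 and Robo2, which both fell, lie 919.5 kb apart on chromosome 11 with no tested gene between them. Sema3a and Sema3d, which both fell, lie 828.3 kb apart on chromosome 4 with no gene of the table between them, and Sema3e lies 584.1 kb beyond Sema3a. Plxna3 and Plxnb3, which both rose, lie 636.1 kb apart on chromosome X, and of the 20 tested genes between them 11 rose, 4 fell and 5 did not pass. Of all tested genes 19.6% rose and 19.8% fell, and the interval as a whole was not tested. Neighbours did not always share a direction: Sema4a, which fell, lies 767.8 kb from Efna1, which rose. Efna3, which did not pass (-0.72), lies between Efna1 and Efna4, which both rose, at 41.6 and 10.7 kb.

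Genes of the pathway outside the members were counted in the same fit. The table annotates 117 further genes to axon guidance (KEGG), of which 98 were tested: 12 rose, 33 fell and 53 did not pass, so 45.9% passed, with a median log2 fold change of -0.15. With a replicate block 10 rose and 24 fell, while the share of all tested genes that passed went from 39.4% to 30.5%. Its largest falls were Pak6, Pak3, Ntng1 and Camk2b, and its largest rises Cxcr4, Boc, Wnt4 and Ntng2. Pak6, a kinase gene downstream of Rac and Cdc42, was counted 53, 34 and 51 times in DMSO and never in FSK. It was at least 14.6-fold lower at a floor of 3 counts per library (adjusted p = 0.00186). Pak6, Pak3 and Ntng1 would not have passed the filter on their FSK libraries and entered the test through DMSO, so they had to differ, and their p-values and place among the largest falls rest on that. Camk2b, a calcium-dependent kinase gene, fell by 2.35 ± 0.17 (adjusted p = 2.91e-05), and the Wnt ligand gene Wnt4 rose by 1.63 ± 0.11 (adjusted p = 1.89e-05).

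A list of 28 co-receptors and further ligands overlaps that annotation. Among the 22 that could be tested there were 4 rises and 4 falls (36.4% passed, against 39.4% of all tested genes). Neo1, encoding neogenin, a receptor of netrins and of repulsive guidance molecules, had 44.9, 54.0 and 50.9 CPM in DMSO and 23.2, 27.4 and 24.8 CPM in FSK. The groups were apart and it fell by 0.99 ± 0.10 (adjusted p = 0.000143). The adhesion genes L1cam (-2.08 ± 0.22, adjusted p = 0.000252) and Cntn1 (-1.71 ± 0.30, adjusted p = 0.00289) fell, and the netrin-G gene Ntng1 was counted 19, 23 and 26 times in DMSO and 4 times in each FSK library (-2.38 ± 0.67, adjusted p = 0.024). Ntng2, the other netrin-G gene, went from 85.1 ± 4.52 to 227 ± 8.63 CPM (SD, n = 3) and rose by 1.41 ± 0.06 (adjusted p = 2.11e-06). The chemokine receptor gene Cxcr4 (3.15 ± 0.37, adjusted p = 0.000381), the hedgehog co-receptor gene Boc (2.37 ± 0.20, adjusted p = 7.55e-05) and the proteoglycan gene Sdc3 (0.31 ± 0.07, adjusted p = 0.00709) also rose.

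Inside the cell, a list of 49 effectors also overlaps the axon guidance annotation above, with Pak3 in both, so the counts are not separate. The list had 43 genes above the filter, with 7 rises, 14 falls and 22 that did not pass. Of these 43, 48.8% passed, against 39.4% of all tested genes, and the median log2 fold change was -0.10. Enah, which promotes actin filament growth at leading edges, fell by 1.31 ± 0.06 (adjusted p = 4.46e-06). The kinase genes Rock2 (-1.03 ± 0.19, adjusted p = 0.0035) and Abl2 (-1.02 ± 0.09, adjusted p = 0.000114) fell. Pak3 was counted 44, 42 and 107 times in DMSO and 15, 4 and 0 times in FSK (-3.23 ± 1.02, adjusted p = 0.0369). The exchange factor genes Farp2 (0.69 ± 0.09, adjusted p = 0.000817) and Trio (0.54 ± 0.11, adjusted p = 0.00492), the kinase gene Limk2 (0.44 ± 0.08, adjusted p = 0.00442) and Mical1, a plexin-bound oxidase gene (0.39 ± 0.08, adjusted p = 0.00678), rose. Of 8 genes for proteases and phosphatases that act on guidance proteins, 3 rose (Mmp2, Psen2 and Ptpn11), 1 fell (Mmp9) and 4 did not pass. That is 50% passing, against 39.4% of all tested genes. The matrix metalloprotease gene Mmp2 had the largest change of these (2.81 ± 0.20, adjusted p = 2.7e-05).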

How the data were processed

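C6 cells were sequenced by paired-end RNA-seq of total RNA, per the labels. The deposited table gives, per the file headers, whole-number counts and FPKM for each gene and library; where the count is 0, the authors' FPKM is 0.0001, read here as 0 in sums. The submitters' processing notes name cutadapt, HISAT2, StringTie, edgeR, DESeq2 and Rnor_6.0. Not given in the sources used here: the annotation release, the strand rule and whether a count is a read or a pair. Epha1 overlaps Zyx on the opposite strand, so its counts are uncertain.

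Counts were fitted with edgeR 4.0.16 (R 4.3.3): default expression filter (minimum count 10), TMM, quasi-likelihood F test, FSK against DMSO with no block, Benjamini-Hochberg adjustment over 14166 tested genes. The SE is the log2 fold change divided by the root of F. The fit was also run on simulated counts with known changes in far fewer genes than passed here. That run therefore does not cover the setting of these data. The biological coefficient of variation was 20.8%. Intervals of values come from 3 libraries per group, and the count of a gene in a library sets its counting error. Transcript length was implied from each gene's count, FPKM and library total (median of the 6 libraries).

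Members follow a symbol rule. Members and lists were chosen with earlier results of these data known. Values per library are given for members that passed with at least a 2-fold change and for the 2 members of highest FPKM in each family, and in the other lists up to 4 genes per direction are named; Sema4c, Nrp1 and others are given as members of a family. Ablim1 and Pecam1 of the lists were not matched to a symbol. The result of 1 further marker list is not reported here. Alternatives were RLE size factors, DESeq2 1.42.0, no filter, a mean FPKM of at least 1, limma 3.58.1 on log2(FPKM + 1) and log2(FPKM + 0.1), a replicate block, removal of the length trend and leaving out each library.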

Additional observations from a re-analysis of the deposited data

How the results depend on the processing

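Over the 14 alternatives, 22 to 31 members passed, with 9 to 12 rises and 12 to 21 falls, and leaving out each library gave 22 to 29. The share of all tested genes that passed moved over the same alternatives from 29.2% to 45.6%, and was 29.4% without DMSO replicate 2, which gave the lowest count of members. The most falls, 20 and 21, came from limma on FPKM, where 41.4% of all genes that passed rose, against 49.7% in edgeR. Of the 28 members that passed, 22 passed in every alternative that tested them, among them Sema3g, which entered the test through FSK alone. The 6 others were Sema6c, Ntn1, Sema4a, Sema4b, Ephb3 and Plxna1 (-0.25, adjusted p = 0.0898 without DMSO replicate 2), and Sema6c also missed with no filter on low counts, with a replicate block and with the length trend removed. Another 8 members passed in at least 1 alternative, among them Efna3 and Sema3e, each without 1 library, and Ntn3 with limma on log2(FPKM + 1) (adjusted p = 0.0427), not on log2(FPKM + 0.1) (0.0613). Sema6d, which entered the test through DMSO alone, is also among the 8.

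No member that passed changed sign. Of those that did not pass, 4 did, all near 0. With the length trend removed the log2 fold changes were 0.0224 for Epha1, 0.0702 for Ephb4, 0.004 for Sema3c and 0.0671 for Sema3f. Over the fits that leave out a library they ran from -0.1361 to 0.047 for Epha1, from -0.0879 to 0.0248 for Ephb4, from -0.2803 to 0.0152 for Sema3c and from -0.208 to 0.0009 for Sema3f. On the log2(FPKM + 1) scale low members moved less: Sema3d -1.45, Sema3g 0.55 and Efnb2 -0.32.

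The labels number the libraries but name no shared batch, so the numbers were not taken as pairs. Deviations from the group mean had correlations of -0.08, 0.01 and -0.10 between same-numbered DMSO and FSK libraries. Between the others the correlations were -0.02 to 0.10. With a replicate block 26 of 48 tested members passed, 10 as rises and 16 as falls, and 34 of 98 further annotated genes. The share of all tested genes that passed was 30.5% with the block and 39.4% without it. Those annotated genes gave 34 to 49 over all alternatives, with 22 to 39 falls, while that share ran from 29.2% to 45.6%. The SE of the log2 fold change was largest for Slit3 (0.74), Ephb6 (0.86), Sema3g (1.08), Efnb3 (1.14) and Sema6d (1.25), whose counts were low, and the part of depth and of spread between libraries in it was not tested.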
